A study of Mus musculus with 9 samples.

Results

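The genes described here are the glucocorticoid receptor Nr3c1, its relative Nr3c2, the steroid-activating enzyme Hsd11b1 and 7 genes that respond to glucocorticoids in many tissues: Fkbp5, Zbtb16, Klf9, Klf15, Tsc22d3, Sgk1 and Errfi1. They were chosen by gene symbol, with earlier results of these data known. All 10 were among the 13890 genes of the count table. Each had at least 10 counts in every library, and all 10 were among the 13364 genes tested.

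RNA was measured in whole hearts of male NSG mice, an immunodeficient strain without mature lymphocytes, which were 8 weeks old at surgery. Sham mice (S, n = 3) received saline in the spleen. Mice labelled HCT116 (T, n = 3) received HCT116 cells, an established human colorectal cancer line, in the spleen, a route that seeds the liver. Mice labelled HCT116+ACVR2B/Fc (A + T, n = 3) received the same cells and weekly ACVR2B/Fc, a soluble activin receptor fused to an antibody Fc fragment that traps activins, myostatin and related ligands, and all hearts were collected about 3 weeks after surgery. The labels number the mice separately, so each library was counted as 1 animal, and the time of day at collection is not given in the sources used here.

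The label of the T libraries carries a doubt that touches every comparison with them. Their fold changes vs. S followed the supplementary column headed ACVR2B vs. sham, and not the column headed for tumour hosts. The differences between A + T and T did not closely follow the column headed for that pair. Those between A + T and S closely followed none of the 3 columns, but no column is headed for them. Which of the labels and headings is right was not tested, so each direction given for T or A + T is that of the libraries so labelled. The libraries held 12392222 to 19732471 counts, of which the ribosomal transcript Rn45s took 4.57 to 19.6%. Cardiomyocyte markers (Myh6, Tnnt2, Actc1, Ttn, Ryr2 and Pln) summed to 40234 to 70878 CPM, which is counts scaled to one library total, in the 9 libraries. In T, 2 of the 6 were higher than in S (Tnnt2 and Pln), each in only 2 of 9 fits with 1 library left out, and Actc1 was lower in all 9. Over all genes tested, 10.3% were called higher in T than in S and 11% lower. Genes of airway cells summed to 0.166 to 2.08 CPM in 7 libraries, to 103 CPM in T replicate 2 and to 1079 CPM in A + T replicate 3.

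Glucocorticoids enter cells freely and bind a receptor that waits in the cytoplasm in a complex with Hsp90 and its co-chaperones. The bound receptor moves to the nucleus and binds paired half-sites in DNA called glucocorticoid response elements (GREs). Fkbp5, an immunophilin of that complex, lowers the receptor's affinity for hormone and is itself induced by the receptor, which makes a short feedback loop. In the heart the cardiomyocyte responds both through this receptor and through the mineralocorticoid receptor encoded by Nr3c2, which also binds glucocorticoids.

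Promoter sequence of RefSeq (GRCm38.p6, from 250 bases before to 50 bases after each start site) was found for 8 of the 10 genes, in 16 windows. There was no entry for Nr3c1 and Zbtb16. Both strands were searched for the GRE half-site, written AGAACA on one strand and TGTTCT on the other, for a full element of AGAACA and TGTTCT with 3 bases between, and for CACGTG, an E-box that clock factors can bind. A half-site lay in 4 of the 16 windows, against 19.0% of all 32851 mouse promoter windows. The full element lay in 1, upstream of the fifth of 6 Sgk1 start sites, against 0.00913% of all windows, and the E-box lay in 3, against 7.15%. The stretches before the start are shown for 4 genes because Fkbp5, Klf9 and Klf15 rose in T and Sgk1 carries the full element, and capitals mark half-sites and E-boxes.
Fkbp5 (chr17:28486150-28486399, minus strand): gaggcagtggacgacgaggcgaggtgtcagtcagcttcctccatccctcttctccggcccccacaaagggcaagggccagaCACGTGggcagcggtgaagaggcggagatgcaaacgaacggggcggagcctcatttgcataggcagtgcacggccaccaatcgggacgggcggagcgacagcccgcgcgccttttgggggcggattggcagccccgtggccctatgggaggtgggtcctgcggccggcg
Klf9 (chr19:23140976-23141225, plus strand): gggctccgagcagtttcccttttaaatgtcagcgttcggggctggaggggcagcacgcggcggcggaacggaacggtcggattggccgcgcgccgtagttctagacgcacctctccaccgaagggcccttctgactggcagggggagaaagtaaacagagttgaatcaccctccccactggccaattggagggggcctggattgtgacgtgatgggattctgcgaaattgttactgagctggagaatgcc
Klf15 (chr6:90462326-90462575, plus strand): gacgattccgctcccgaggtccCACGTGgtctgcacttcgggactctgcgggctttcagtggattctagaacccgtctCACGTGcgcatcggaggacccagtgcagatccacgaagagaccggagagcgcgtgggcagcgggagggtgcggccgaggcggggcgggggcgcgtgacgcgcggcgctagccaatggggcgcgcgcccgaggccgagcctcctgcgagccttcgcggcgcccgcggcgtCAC
Sgk1, start site 5 of 6 (chr10:21993640-21993889, plus strand): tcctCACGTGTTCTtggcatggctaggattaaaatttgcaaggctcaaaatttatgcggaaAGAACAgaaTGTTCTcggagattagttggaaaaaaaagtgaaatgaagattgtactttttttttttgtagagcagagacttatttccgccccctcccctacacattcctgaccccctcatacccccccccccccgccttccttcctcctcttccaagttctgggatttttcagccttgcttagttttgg
In the Sgk1 stretch the E-box shares bases with a half-site, and the full element follows it. The last capitals of the Klf15 stretch are the part of an E-box that runs past the start. Fkbp5 and Klf15 carry E-boxes but no half-site in these windows, and Klf9 carries neither. These matches describe letters in short windows, not bound sites.

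The question of the first comparison was how hearts labelled T differed from those of sham mice. Of the 10 genes, 4 were higher in T (Zbtb16, Fkbp5, Klf15 and Klf9) and 1 was lower (Nr3c1), at an adjusted P-value under 0.05 in the quasi-likelihood test of edgeR. Over all 13364 genes the same threshold called 10.3% higher and 11% lower. The median log2 fold change was 0.28 over the 10 genes and -0.0038 over all genes. In 5 of the 10 genes, those that were called, the T and S libraries did not overlap, as in 42.6% of all genes. The call of each of these 5 held in all 9 fits with 1 library left out and in all 10 other settings tried.

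**Figure D1:**
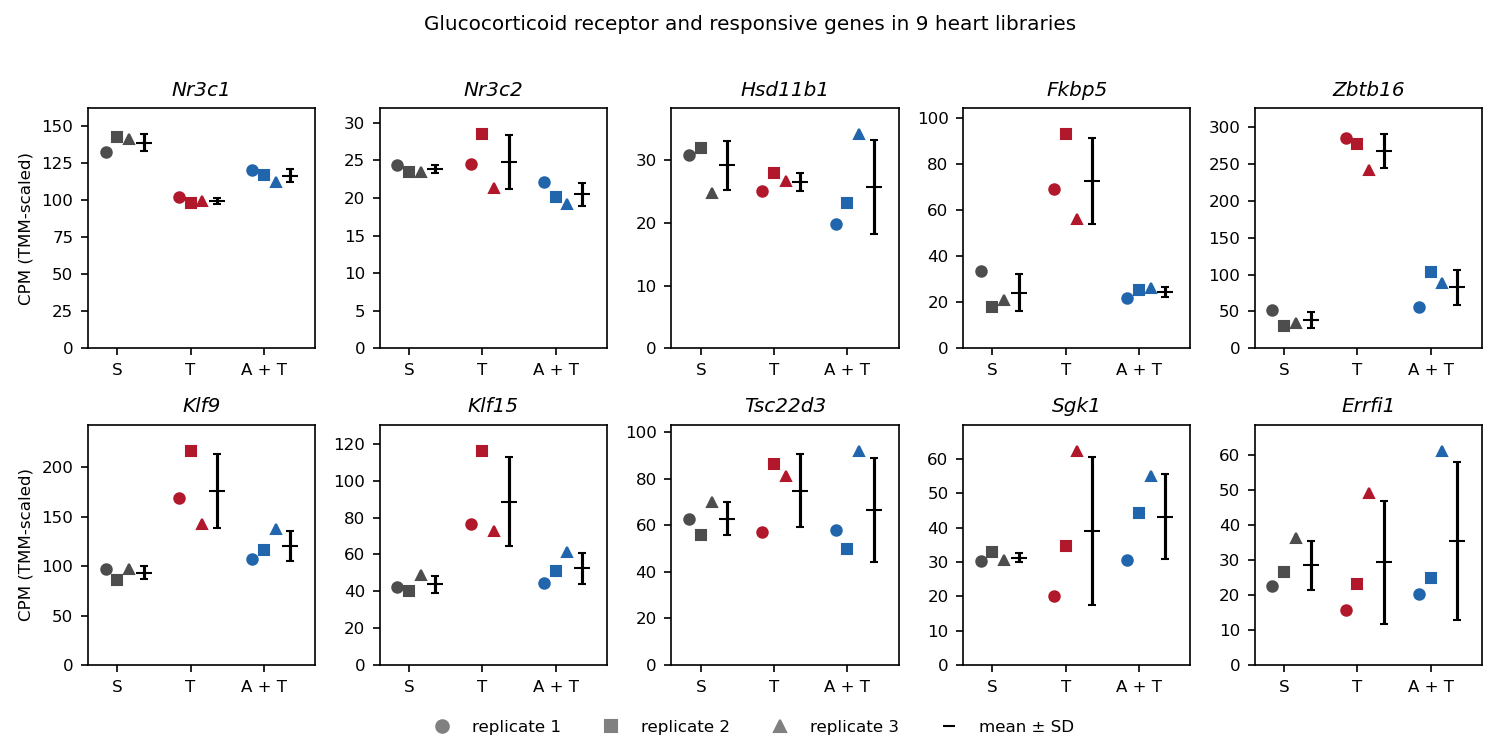
Level of each of the 10 genes (CPM, scaled by TMM factors, linear axes from 0) in the 9 heart libraries, with a point per library, its shape giving the replicate, and the group mean ± SD beside the points. Zbtb16, Fkbp5, Klf9 and Klf15 lay higher in every T library than in any S or A + T library, whereas Nr3c1 lay lower in every T library.

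Nr3c1, the receptor itself, was read at 132, 143 and 141 CPM in S, at 102, 97.8 and 99.0 CPM in T and at 120, 117 and 112 CPM in A + T. The 3 groups did not overlap, with T lowest, A + T between and S highest. T was 1.39-fold lower than S (log2 fold change -0.48 ± 0.069, SE; adjusted P = 0.00126). A + T vs. T gave 0.23 ± 0.069 (adjusted P = 0.0833), and A + T vs. S gave -0.25 ± 0.069 (adjusted P = 0.0489). The last call was lost in each of the 9 fits with 1 library left out, where the adjusted P reached 0.146 without S replicate 2, and in 7 of 10 other settings.

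Nr3c2, the mineralocorticoid receptor, stood at 24.4, 23.5 and 23.5 CPM in S, at 24.5, 28.5 and 21.3 CPM in T and at 22.1, 20.1 and 19.2 CPM in A + T. The T libraries spread around those of S, and the A + T libraries lay below all S libraries. No comparison passed the test, with log2 fold changes of 0.061 (95% interval -0.18 to 0.30) for T vs. S, -0.28 (-0.52 to -0.035) for A + T vs. T and -0.22 (-0.46 to 0.024) for A + T vs. S. The adjusted P-values were 0.727, 0.168 and 0.236.

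Hsd11b1, the enzyme that turns inactive 11-dehydrocorticosterone back into corticosterone inside cells, was at 30.9, 32.0 and 24.8 CPM in S, at 25.2, 28.1 and 26.7 CPM in T and at 19.9, 23.3 and 34.2 CPM in A + T. Its groups overlapped in every pair, and A + T replicate 3 was the highest library. The log2 fold changes were -0.14 (95% interval -0.53 to 0.25) for T vs. S, -0.046 (-0.44 to 0.35) for A + T vs. T and -0.18 (-0.58 to 0.21) for A + T vs. S. Their adjusted P-values were 0.620, 0.909 and 0.545, and each interval spans changes in both directions.

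Markers of fibroblasts and endothelial cells differed between T and S, as Nr3c1 did. Over all genes, 11% were called lower in T than in S. All 6 fibroblast genes (Col1a1, Col1a2, Dcn, Pdgfra, Tcf21 and Lum) were lower in T than in S, and their summed level was 1350 to 1554 CPM in S, 813 to 940 CPM in T and 1035 to 1509 CPM in A + T. Of 5 endothelial genes, 4 (Emcn, Tie1, Kdr and Cdh5) were lower in T than in S, with sums of 714 to 836 CPM in S, 419 to 521 CPM in T and 542 to 634 CPM in A + T. Their part in the lower Nr3c1 of T was not tested, and in whole tissue fewer cells of a type and less RNA per cell cannot be told apart. Between A + T and T, 4 fibroblast genes were higher in A + T (Col1a2, Lum, Tcf21 and Pdgfra), against 3.09% of all genes, though none without T replicate 1. Cdh5 was the 1 endothelial gene higher, and its call held in 1 of the 9 fits with 1 library left out (without A + T replicate 1).

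Zbtb16, a zinc finger transcription factor also called PLZF, differed most of the 10 genes. Its levels were 51.3, 29.8 and 34.1 CPM in S, 284, 276 and 242 CPM in T and 56.2, 103 and 89.1 CPM in A + T. Every T library stood far above the rest, and every A + T library stood above every S library. T was 6.96-fold higher than S (log2 fold change 2.80 ± 0.24, SE; adjusted P = 0.000115). The gene lies at chr9:48654297-48836222 on the minus strand (GENCODE M21, GRCm38).

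In A + T, Zbtb16 was 3.24-fold lower than in T (log2 fold change -1.69 ± 0.23, adjusted P = 0.00486) and 2.15-fold higher than in S (1.10 ± 0.23, adjusted P = 0.0200). The difference from T held in all 9 fits with 1 library left out and in the 10 other settings. The difference from S was lost without S replicate 2 (adjusted P = 0.0833), without S replicate 3 (0.0709) and without A + T replicate 2 (0.0565), and it was lost in 1 of the 10 other settings, limma on the deposited log2 values.

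Fkbp5 (chr17:28399094-28517527, minus strand) was read at 33.3, 17.97 and 21.1 CPM in S, at 68.9, 92.8 and 56.0 CPM in T and at 22.02, 25.1 and 26.1 CPM in A + T. The T libraries stood apart from the other 6, and the A + T libraries fell inside the range of S. T was 3.01-fold higher than S (log2 fold change 1.59 ± 0.23; adjusted P = 0.00127), and A + T was 2.98-fold lower than T (-1.58 ± 0.23; adjusted P = 0.00705). A + T vs. S gave 0.014 (95% interval -0.50 to 0.53; adjusted P = 0.978). Both calls held in all 9 fits with 1 library left out, with T vs. S between 1.37 and 1.91.

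The counterpart of Fkbp5 in the receptor complex is Fkbp4, a related immunophilin that favours nuclear transport of the receptor. Fkbp4 stood at 304, 311 and 295 CPM in S, at 177, 156 and 160 CPM in T and at 216, 220 and 182 CPM in A + T. It thus lay lowest in T, where Fkbp5 lay highest. T vs. S gave -0.88 (adjusted P = 0.000232) and A + T vs. S gave -0.56 (adjusted P = 0.00776), while A + T vs. T gave 0.33 (adjusted P = 0.0636).

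Klf9 (chr19:23141226-23168134, plus strand), a Krüppel-like transcription factor that the receptor induces directly, was at 97.3, 85.8 and 96.9 CPM in S, at 169, 217 and 143 CPM in T and at 107, 116 and 137 CPM in A + T. All T libraries were above all A + T libraries, which in turn were above all S libraries. T was 1.89-fold higher than S (log2 fold change 0.92 ± 0.15; adjusted P = 0.00217). A + T vs. T gave -0.55 ± 0.15 (adjusted P = 0.0537), which passed the threshold without T replicate 3 (0.0282), without A + T replicate 3 (0.0262), with DESeq2 (0.0054) and with RLE factors (0.0497). A + T vs. S gave 0.37 ± 0.15 (adjusted P = 0.145).

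Klf15 (chr6:90462576-90475238, plus strand), which governs amino acid use and rhythmic ion channel expression in the heart and acts with the receptor on shared targets, was at 42.5, 40.0 and 48.9 CPM in S, at 76.4, 116 and 73.0 CPM in T and at 44.7, 51.1 and 61.4 CPM in A + T. The T libraries were above the other 6, and those of S and A + T overlapped. T was 2.03-fold higher than S (log2 fold change 1.02 ± 0.18; adjusted P = 0.00340). A + T was 1.69-fold lower than T (-0.76 ± 0.18; adjusted P = 0.0367), but this call held in only 2 of the 9 fits with 1 library left out, without T replicate 3 (0.0323) and without A + T replicate 3 (0.0190), and its adjusted P reached 0.102 without A + T replicate 1. It was also lost in 3 of the 10 other settings. A + T vs. S gave 0.26 (95% interval -0.14 to 0.66; adjusted P = 0.389).

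T replicate 2 was the highest library for Fkbp5, Klf9 and Klf15. The same library held 78.1 CPM of summed adipocyte genes (Adipoq, Plin1, Cidec and Cfd), against at most 18.4 CPM in any other. Without it, the T vs. S log2 fold changes were 1.37 for Fkbp5, 0.74 for Klf9 and 0.77 for Klf15, and all remained called. Of the 3 adipocyte genes tested, edgeR called none in any comparison, none had an unadjusted P-value under 0.05, and DESeq2 and limma-voom called none.

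**Figure D2:**
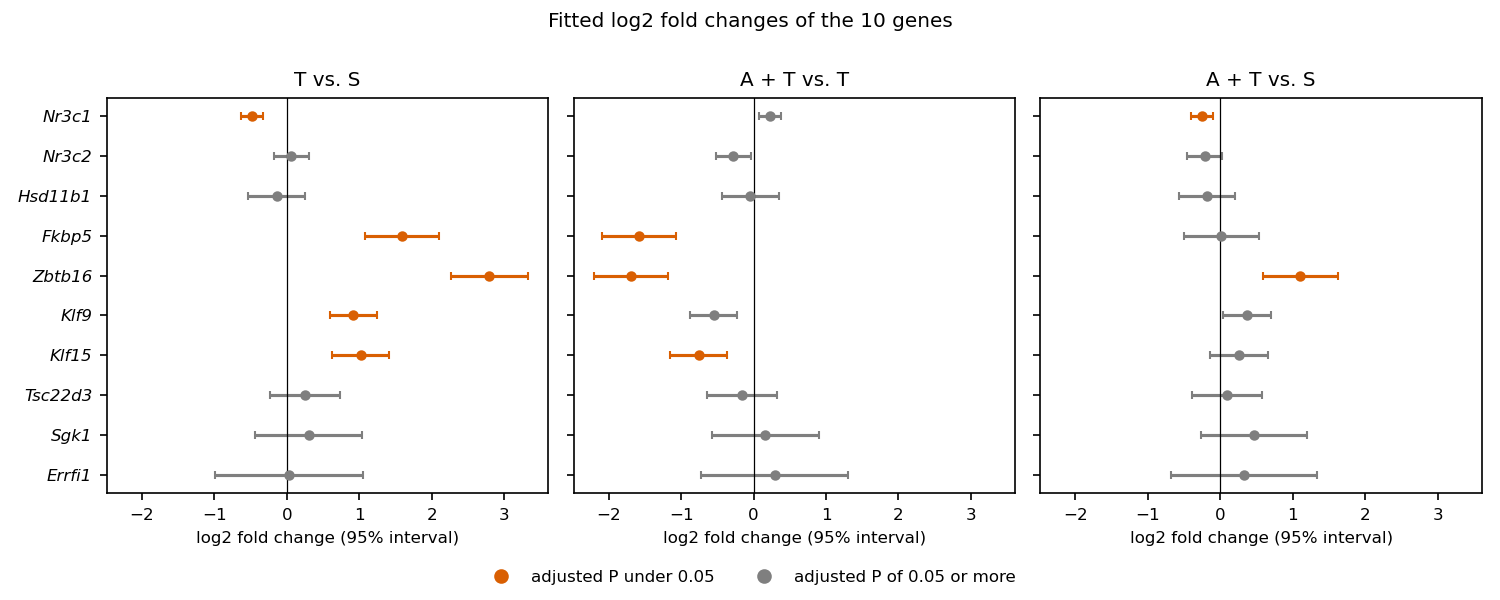
Fitted log2 fold change of each of the 10 genes (x axis) with its 95% interval in the 3 comparisons, with orange for an adjusted P-value under 0.05 in edgeR and grey otherwise. In T vs. S the intervals of Zbtb16, Fkbp5, Klf15 and Klf9 lie above 0 and that of Nr3c1 below, and the intervals of Sgk1 and Errfi1 are the widest.

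Tsc22d3, which encodes the anti-inflammatory protein GILZ and is a standard reporter of receptor activity, was at 62.8, 55.9 and 69.9 CPM in S, at 56.9, 86.4 and 81.2 CPM in T and at 58.1, 50.04 and 92.1 CPM in A + T. T replicate 1 lay within the S range, the other two T libraries lay above it, and A + T spanned all of it. T vs. S gave a log2 fold change of 0.25 (95% interval -0.23 to 0.74; adjusted P = 0.445). The upper end of that interval lies below the values fitted for Zbtb16, Fkbp5, Klf15 and Klf9. It overlaps the intervals of Klf15 (0.62 to 1.42) and Klf9 (0.59 to 1.25), and the genes were not tested against each other. A + T vs. T gave -0.16 (-0.65 to 0.32; adjusted P = 0.705) and A + T vs. S gave 0.089 (-0.39 to 0.57; adjusted P = 0.836).

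Sgk1, a kinase that stabilises ion channels and transporters, was at 30.4, 32.8 and 30.6 CPM in S, at 20.01, 34.6 and 62.4 CPM in T and at 30.4, 44.1 and 55.1 CPM in A + T. The S libraries were close together, whereas T held both the lowest and the highest of the 9. T vs. S gave 0.30 (95% interval -0.44 to 1.04; adjusted P = 0.557) and A + T vs. S gave 0.47 (-0.27 to 1.20; adjusted P = 0.404). Without T replicate 3 the T vs. S value turned to -0.19.

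Errfi1, a feedback inhibitor of the EGF receptor also called Mig6, was at 22.7, 26.6 and 36.2 CPM in S, at 15.7, 23.3 and 49.3 CPM in T and at 20.2, 24.9 and 61.4 CPM in A + T. In each group replicate 3 was well above the other two libraries, and all groups overlapped. T vs. S gave 0.029 (95% interval -0.99 to 1.05; adjusted P = 0.972), A + T vs. T gave 0.30 (-0.72 to 1.31; adjusted P = 0.752) and A + T vs. S gave 0.32 (-0.68 to 1.33; adjusted P = 0.692). With this spread between animals, changes up to the ends of those intervals, in either direction, are not excluded.

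The spread of Sgk1 and Errfi1 was set beside that of immediate early genes, which respond within minutes to handling, ischaemia and growth factors. The 9 genes (Fos, Fosb, Jun, Junb, Egr1, Egr2, Nr4a1, Atf3 and Ier2) summed to 231, 411 and 460 CPM in S, to 179, 196 and 546 CPM in T and to 238, 581 and 518 CPM in A + T. T replicate 3 held the highest Sgk1 and the highest immediate early sum of its group, and Rn45s took 19.5% of its counts against 4.57 and 5.18% in the other T libraries. In S the order was the other way: replicate 1 had the most Rn45s (19.0% against 7.98 and 9.50%) and the lowest Errfi1 and immediate early sum. In A + T, Rn45s took 8.60, 17.4 and 19.6% in replicates 1, 2 and 3. Sgk1 and Errfi1 rose in the same order there, whereas the immediate early sum was lowest in replicate 1 and highest in replicate 2. T vs. S called 3 of the 9 lower (Egr2, Egr1 and Ier2), and 1 without S replicate 2 or without T replicate 1. A + T vs. T called Egr1 higher, a call that held in 2 of the 9 fits with 1 library left out, and 3 of the 9 genes were higher without T replicate 3. Over all genes, T vs. S called 11% lower and A + T vs. T called 3.09% higher. Whether these values bear on Sgk1 and Errfi1 was not tested.

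**Figure D3:**
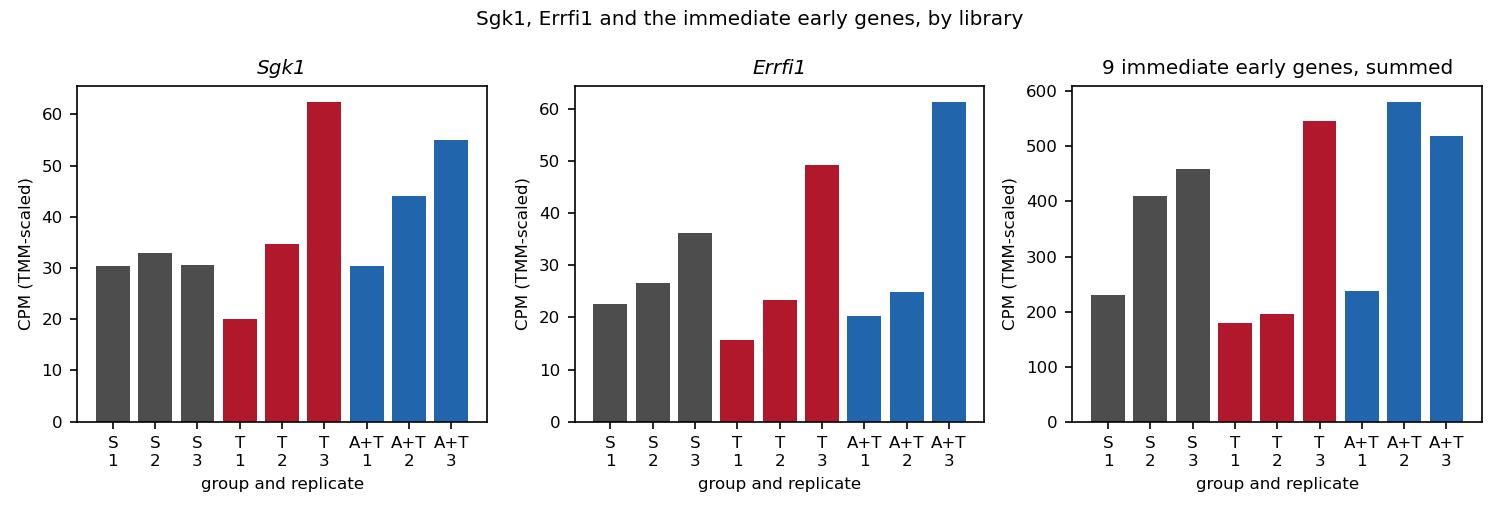
CPM of Sgk1, of Errfi1 and of 9 immediate early genes summed (y axes from 0) in each of the 9 libraries, with 1 bar per library and colour for the group. T replicate 3 reaches 62.4 CPM for Sgk1, 49.3 CPM for Errfi1 and 546 CPM for the sum, above the other two T libraries in each panel.

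The second comparison, A + T vs. T, was between libraries that by their labels differ in ACVR2B/Fc. Of the 10 genes, 3 were lower in A + T (Zbtb16, Fkbp5 and Klf15), against 2.79% of all genes tested. None was higher in edgeR, against 3.09% of all genes; 1 was at an unadjusted P-value under 0.05 (Nr3c1), and DESeq2 and limma-voom called none. The median log2 fold change was -0.22 over the 10 genes and 0.0098 over all genes. The groups did not overlap in 5 of the 10 genes and in 25.4% of all genes.

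The third comparison, A + T vs. S, set the libraries labelled A + T against those of sham mice. Zbtb16 alone was higher, against 4.67% of all genes, and Nr3c1 alone was lower, against 3.64%. The median was 0.17 over the 10 genes and 0.0034 over all genes. The groups did not overlap in 4 of the 10 genes (Zbtb16, Nr3c1, Klf9 and Nr3c2) and in 32.4% of all genes. The T libraries enter the first comparison with one sign and the second with the other, and the S libraries enter the first and the third, so the 3 sets of values are not independent.

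With limits of 1.5-fold and an unadjusted P of 0.05, which the study's methods use, 4 of the 10 genes passed when T was set against S, 3 when A + T was set against T, and 1 when A + T was set against S. Over all genes these shares were 14.2, 8.11 and 8.91%. Nr3c1, whose change was under 1.5-fold, passed in none of the 3.

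Levels of different genes were compared on the deposited log2 scale, which followed exon length across genes as a value per length does. In S, Klf9 was the highest of the 10 at 4.83 ± 0.10 (SD, n = 3), and Tsc22d3 (4.56 ± 0.16), Nr3c1 (4.44 ± 0.060), Hsd11b1 (4.33 ± 0.20) and Klf15 (4.25 ± 0.15) followed with neighbours within their spread. Errfi1 (3.21 ± 0.34), Sgk1 (2.91 ± 0.063), Zbtb16 (2.86 ± 0.41), Fkbp5 (2.58 ± 0.46) and Nr3c2 (2.54 ± 0.032) formed a lower group that also overlapped. The receptor gene Nr3c1 thus lay well above its mineralocorticoid relative Nr3c2 in S.

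In T the order on that scale was different. Klf9 (5.73 ± 0.30) and Zbtb16 (5.70 ± 0.12) were level at the top, followed by Klf15 (5.23 ± 0.37) and Tsc22d3 (4.79 ± 0.32). Hsd11b1 (4.20 ± 0.075), Fkbp5 (4.19 ± 0.36) and Nr3c1 (3.97 ± 0.033) came next, above Errfi1 (3.12 ± 0.83), Sgk1 (3.08 ± 0.82) and Nr3c2 (2.59 ± 0.21). In A + T, Klf9 (5.19 ± 0.18) was again the highest, Zbtb16 (3.96 ± 0.45) lay between Hsd11b1 (4.12 ± 0.40) and Errfi1 (3.37 ± 0.85), and Fkbp5 (2.65 ± 0.13) and Nr3c2 (2.32 ± 0.11) were at the bottom.

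The genes that work with the receptor were taken from lists of its complex and its cofactors. Of 10 chaperones and co-chaperones of the complex, 4 were lower in T than in S (Fkbp4, Hsp90aa1 at -0.38, Stip1 at -0.37 and Hspa8 at -0.33 on the log2 scale), and Hsp90ab1 joined them in A + T vs. S, which made 5, or 3 without S replicate 2. The Hsp90ab1 call held in 2 of the 9 fits with 1 library left out, and that of Hspa8 in T vs. S in 4. The median log2 fold change of the 10 was -0.24 in T vs. S, against -0.0038 for all genes. Over all genes, 11% were called lower there and 3.64% in A + T vs. S. Between A + T and T, edgeR called none of the 10, with 1 higher and 1 lower at an unadjusted P-value under 0.05, and DESeq2 called 1 higher. Of 11 coactivators and corepressors, 1 was lower, the coactivator Ncoa1, at -0.45 in T vs. S (adjusted P = 0.00808) and -0.40 in A + T vs. S (adjusted P = 0.0303), the latter held in 4 of the 9 fits.

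Of 8 genes of steroid conversion and export, 3 were tested: H6pd, which supplies Hsd11b1 with its cofactor, and the steroid exporters Abcb1a and Abcb1b. EdgeR called none of them in any comparison, nor did DESeq2 or limma-voom. Abcb1b alone had an unadjusted P-value under 0.05, in T vs. S, where its log2 fold change was 0.50. H6pd gave -0.019 in T vs. S (adjusted P = 0.894), beside the -0.14 of Hsd11b1.

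Beyond the 10 genes, 29 others known to respond to glucocorticoids were examined, a list chosen with earlier results of these data known. In T vs. S, 15 of the 29 were higher and none was lower in edgeR, DESeq2 called 15 and limma-voom 14 higher and none lower, and 1 was lower at an unadjusted P-value under 0.05. Over all genes, edgeR called 10.3% higher and 11% lower. The median log2 fold change was 0.78 over the 29, against -0.0038 over all genes. The largest were Mt2, a metallothionein that binds zinc, and Pdk4, the kinase that switches off pyruvate dehydrogenase. The list also holds targets of fasting, inflammation and Foxo factors, so that it does not single out the receptor. Mt1 and Mt2 lie next to each other and belong to 1 gene family.

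Mt2 stood at 10.6, 10.3 and 25.8 CPM in S, at 187, 195 and 141 CPM in T and at 42.7, 46.1 and 76.8 CPM in A + T, in 3 groups that did not overlap. Pdk4 stood at 126, 259 and 597 CPM in S, at 3867, 1558 and 2436 CPM in T and at 2076, 2465 and 2556 CPM in A + T. The T and A + T libraries of Pdk4 overlapped and all lay above S. T vs. S gave 3.51 for Mt2 (adjusted P = 0.000231) and 3.00 for Pdk4 (adjusted P = 0.00263). A + T vs. T gave -1.66 for Mt2 (adjusted P = 0.0199) and -0.15 for Pdk4 (adjusted P = 0.886).

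Set against T, 4 of the 29 were lower in A + T: Mt2, Mt1 at -1.19, Cdkn1a at -1.02 and Glul at -0.52. Over all genes the share lower was 2.79%. The calls of Mt1 and Cdkn1a held in all 9 fits with 1 library left out and those of Mt2 and Glul in 5. Fkbp5 and Zbtb16 in the same comparison stood at -1.58 and -1.69. Set against S, 8 of the 29 were higher in A + T in edgeR, DESeq2 and limma-voom, against 4.67% of all genes in edgeR. The median of the 29 was 0.51, against 0.0034 over all genes, and 3 were higher in edgeR without S replicate 2. None was called lower, and 1 was lower at an unadjusted P-value under 0.05. Leaving out 1 library moved the T vs. S count between 10 and 17 and the count lower in A + T vs. T between 2 (without T replicate 1, T replicate 2 or A + T replicate 1) and 6 (without T replicate 3 or A + T replicate 3).

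**Figure D4:**
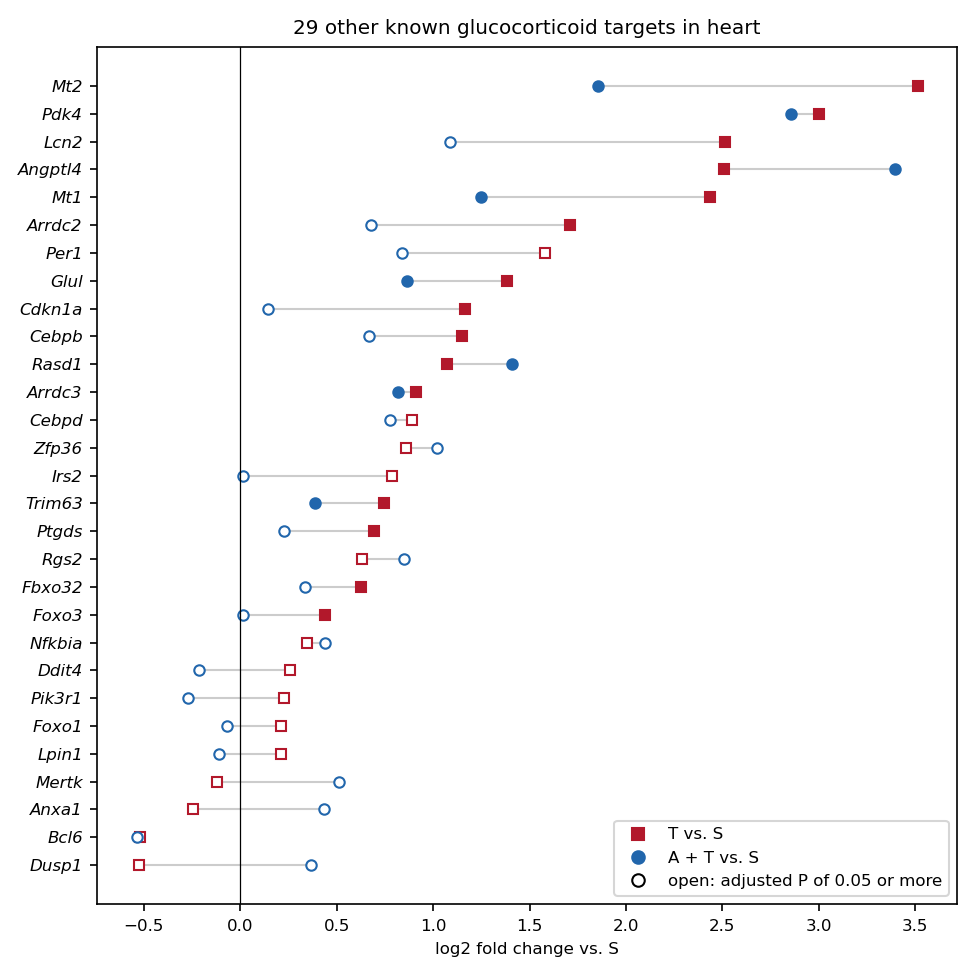
Log2 fold change vs. S (x axis) of 29 other known glucocorticoid targets in T (red squares) and A + T (blue circles), ordered by the T value, with open symbols for an adjusted P-value of 0.05 or more. In T, 15 of the 29 are filled and all of these lie to the right of 0, and in A + T 8 are filled.

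Genes linked to single members were also counted. Over all genes, T vs. S called 10.3% higher and 11% lower, and A + T vs. T called 3.09% higher and 2.79% lower. Of 5 metabolic genes and ion channel subunits linked to Klf15, 1 was lower in T than in S, Kcnip2, the channel subunit that Klf15 drives in mouse heart, at -0.40 (adjusted P = 0.0173), whereas Klf15 itself was higher. The Kcnip2 call was lost without S replicate 1, without S replicate 2 and without T replicate 2. Bcat2, the branched-chain aminotransferase, gave -0.0034 (adjusted P = 0.984). Of 7 genes linked to Sgk1, 3 were higher in T, the kinase substrates Ndrg1 (0.48) and Ndrg2 (0.32) and the activating kinase Pdpk1 (0.42), and Pdpk1 was lower in A + T vs. T (-0.42; adjusted P = 0.0153), though not without T replicate 1. The Ndrg2 call in T vs. S held in 3 of the 9 fits with 1 library left out. In A + T vs. T, 6 of the 7 were lower at an unadjusted P-value under 0.05 in edgeR. Over all genes, 22.4% passed that limit in either direction. DESeq2 called 4 of the 7 lower and limma-voom 1. Of 6 ErbB receptors and ligands linked to Errfi1, Egfr was lower in T (-0.45; adjusted P = 0.0301), in 3 of those 9 fits. Between A + T and T, Hbegf was lower in A + T (-0.64; adjusted P = 0.0293), though not without T replicate 1 or A + T replicate 1. Erbb3 gave 0.43 there (adjusted P = 0.0485), a call that held in 1 of the 9 fits and that neither DESeq2 nor limma-voom made.

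Among close relatives of the 10 genes, Tsc22d4 was lower in T than in S (-0.30; adjusted P = 0.0336), in 3 of the 9 fits with 1 library left out. Klf13, a relative of Klf9, gave 0.038 (adjusted P = 0.903) and Sgk3 gave 0.36 (adjusted P = 0.0866). None of these 3 relatives was called in A + T vs. T or A + T vs. S by edgeR, DESeq2 or limma-voom, and none had an unadjusted P-value under 0.05 there.

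Klf9 and Klf15 follow the day in heart, and clock genes were counted beside them. Of 14 clock genes, 4 were higher in T than in S (Dbp at 2.47, Ciart at 1.97, Nr1d2 at 1.11 and Nr1d1 at 1.06) and 2 were lower (Cry1 at -1.64 and Arntl at -0.78). A + T vs. S called 3 higher (Dbp, Nr1d2 and Nr1d1) and Cry1 lower (-1.34). Over all genes, T vs. S called 10.3% higher and 11% lower, and A + T vs. S called 4.67% higher and 3.64% lower. With 1 library left out, Cry1 was lower in all 9 fits of both comparisons with S, whereas the 3 higher in A + T fell to 0 without S replicate 1, and the 2 lower in T ranged from 1 (without any of the S replicates) to 4 (without A + T replicate 3). For A + T vs. T, edgeR and limma-voom called none, DESeq2 called 1 lower, and 4 had an unadjusted P-value under 0.05. The part of these differences in the values of Klf9, Klf15, Fkbp5 and Zbtb16 was not tested.

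The 4 genes named here whose levels were most like that of Fkbp5 over the 9 libraries were Supt5, a transcription elongation factor (Pearson r = 0.991 of log2(CPM + 0.5)), Fam46b (0.978), Igsf23 (0.976) and Map3k6 (0.975). The points share the 3 groups, so the r values are given as a description. Fam46b and Map3k6 moved more than Fkbp5 itself, with T vs. S log2 fold changes of 2.68 and 2.30, whereas Supt5 moved by 0.38.

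Other markers are given by their counts. Over all genes, T vs. S called 10.3% higher and 11% lower. The share called higher was 3.09% in A + T vs. T and 4.67% in A + T vs. S. Of 5 macrophage genes, 1 was higher in T than in S (Cd163, not called by limma-voom and in 4 of the 9 fits), 3 in A + T vs. T (Cd68, Adgre1 and Csf1r; 1 without T replicate 1) and 4 in A + T vs. S (these 3 and Cd163; 2 without S replicate 2). Their sum was 123 to 135 CPM in S, 122 to 135 CPM in T and 148 to 231 CPM in A + T. Of 5 atrial genes, Bmp10 was lower in T than in S, though not without T replicate 1 or T replicate 2. The atrial sum was 3000 to 3084 CPM in S, 861 to 4554 CPM in T and 793 to 2055 CPM in A + T. In A + T vs. S, edgeR called none of the atrial genes lower and limma-voom called 1. The 1 airway gene tested, Scgb3a1, was higher in T than in S in edgeR only, and the 1 erythroid gene, Alas2, ranged from 68.4 to 341 CPM and was called in no comparison by edgeR, DESeq2 or limma-voom. The calls of Zbtb16 and Fkbp5 against S and against A + T, both in T, held without T replicate 2 and without A + T replicate 3, the libraries with airway genes.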

How the data were processed

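Heart RNA of 9 mice (3 per group) was analysed, grouped by the sample labels. The authors made mRNA libraries, aligned 75-base paired reads to mm10 with STAR and deposited counts per RefSeq gene, taken from uniquely mapped, strand-matched pairs by featureCounts without normalization. The authors also deposited log2 normalized values, whose tool is not given in the sources used here; edgeR, FastQC and STAR are named in the submitters' processing notes. The deposited log2 values differed from log2 CPM by a nearly constant amount per gene (median SD over libraries 0.00267), and that amount followed log2 exon length (r = 0.788 across 11827 genes, which are not independent replicates).

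Of 13890 genes, 526 were removed because over 4 libraries had a CPM below 0.5. The 3 pairs of groups were compared, in a fit to the counts of all 9 libraries, with edgeR 4.0.16 (R 4.3.3, TMM factors, quasi-likelihood test), and P-values were adjusted by the Benjamini-Hochberg method over 13364 genes. The same steps were tested on simulated data. CPM values are TMM-scaled. SEs are the log2 fold change over the square root of F, and 95% intervals use the same test. On that scale 3 counts equal 0.152 to 0.281 CPM.

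The members and lists were chosen with earlier results of these data known. All 10 members are named. Of each list at most 4 genes were to be named: the 2 largest rises and falls called in T vs. S, and partners or paralogs of members. Further genes named to spell out a count were chosen after their values were seen. Some genes that this rule would name are not reported here. The lists cover the receptor complex, coregulators, steroid conversion, other targets, genes linked to Klf15, Sgk1 and Errfi1, relatives, immediate early, clock and cell type genes. The alternatives were DESeq2 1.42.0, limma-voom (limma 3.58.1), RLE and upper-quartile factors, library totals alone, no filter on low counts, a minimum of 10 counts in each library, fits to only the groups compared, Rn45s left out, the deposited log2 values with limma, the study's thresholds and each library left out. Leaving libraries out of list counts was added after the data had been seen. Positions are from GENCODE M21 (GRCm38) and promoter sequence from RefSeq. Within-group pairs of libraries differed by more than counting noise. Drawing used Python 3.11.15 and matplotlib 3.10.9.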

Additional observations from a re-analysis of the deposited data

How the results depend on the processing

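No paired analysis was possible because the labels give the groups no shared replicate numbers. The number of the 10 genes called in T vs. S was 5 in every fit with 1 library left out, and 2 to 4 in A + T vs. T. In A + T vs. S it was 0 to 1 in those fits and 1 with RLE factors, library totals alone, upper-quartile factors, no filter, only the groups compared, Rn45s left out and the study's thresholds, and 0 with limma on the deposited log2 values, against 2 as reported. Genes called in all numbered 2838, 786 and 1110 in the 3 comparisons as reported and 1765 to 3786, 130 to 1006 and 269 to 1086 with 1 library left out, the lowest without T replicate 1, T replicate 1 and S replicate 1. With library totals alone they numbered 1636, 438 and 555. In A + T vs. T they numbered 1198 with DESeq2, 217 with only the groups compared and 513 with limma on the deposited values, which gave 672 in A + T vs. S. The cause was not tested. Values that changed sign were uncalled. Errfi1 in T vs. S was -0.14 with limma-voom, -0.064 with library totals and -0.089 with limma on the deposited values. With 1 library left out, T vs. S spanned -0.53 to 0.34 for Errfi1, -0.19 to 0.62 for Sgk1 and -0.053 to 0.16 for Nr3c2. A + T vs. T spanned -0.36 to 0.87 for Errfi1, -0.16 to 0.66 for Sgk1, -0.31 to 0.11 for Hsd11b1 and -0.47 to 0.0059 for Tsc22d3. A + T vs. S spanned -0.33 to 0.61 for Errfi1, -0.21 to 0.26 for Tsc22d3 and -0.16 to 0.33 for Fkbp5.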
